A study of Homo sapiens with 6 samples.

Results

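The 9 genes described here belong to the MHC class I antigen presentation pathway of DU145 cells. They were taken as the rows with the gene symbols given next, a choice made with earlier results of these data known, and make up 9 of the 23062 genes and transcript loci listed for every library. By role they are the class I heavy chains HLA-B, HLA-C and HLA-E, the light chain B2M, the peptide transporter subunits TAP1 and TAP2 with their partner TAPBP, and the immunoproteasome subunits PSMB8 and PSMB9.

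DU145 is an established human cell line of androgen-independent prostate cancer, and the labels give its genotype as WT. The series compared 3 libraries of control cells, kept in medium for 48 h, with 3 libraries of cells treated for 48 h with taraxasterol (TAX), a plant triterpene, at the dose that the labels call the IC50. TAX was prepared in DMSO, and the sources used here do not state whether the control cells received DMSO, so TAX and its solvent cannot be told apart. Nothing in the labels says that the 3 libraries of a group came from separate cultures. The p-values below therefore measure only the spread between these libraries, which may be technical.

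Class I molecules display peptides from the inside of nearly every nucleated cell to CD8+ T cells and natural killer cells. The proteasome cuts cytosolic proteins, the TAP transporter carries the peptides into the endoplasmic reticulum, and there the loading complex fits them to a heavy chain that is paired with beta-2 microglobulin. Interferons are known to raise transcription of most of these genes, through interferon regulatory factors and STAT proteins and through the transactivator NLRC5, and tumours often lower them.

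Expression values carried no unit and were read as FPKM, fragments per length of transcript, scaled to the number of mapped fragments. On that reading, levels of different genes can be set side by side. Depth per library is unknown, since no read counts were analysed here and low values showed no multiples of a single read. The FPKM values of a library summed to between 322483 and 363724, with control replicate 3 the lowest, and between 3997 and 4798 genes were listed at 0. Control replicate 3 also had the lowest median over the genes tested, 8.74 FPKM, against 9.84 to 9.99 FPKM in the other 5 libraries, and the log2 fold changes of all 9 genes are given with and without it.

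The identity of the cells was checked on marker genes. The 5 epithelial markers summed to between 428 and 545 FPKM in control cells and to between 555 and 606 FPKM in TAX-treated cells, so the groups did not overlap. Taken singly, 4 of the 5 had log2 fold changes above 0 and 1 below, from -0.16 to 0.32. Of these 5 genes, 0 passed the limma test (smallest adjusted p = 0.336). Of the 6 immune cell markers, 5 were under 1 FPKM in every library, with CD3E of T cells listed at 0 throughout. These 5 summed to between 0.238 and 0.611 FPKM in control cells and to between 0.441 and 0.626 FPKM in TAX-treated cells. The other was CD68, a lysosomal protein of macrophages and of other cells, at 26.7, 23.6 and 20.01 FPKM in control and 32.5, 33.4 and 32.9 FPKM in TAX replicates 1 to 3 (log2 fold change 0.48, adjusted p = 0.0884, limma). The 8 fibroblast and endothelial markers summed to between 1.98 and 2.14 FPKM in control cells and to between 1.52 and 1.603 FPKM in TAX-treated cells, and 7 of the 8 were under 1 FPKM in every library. Nearly all of this sum was COL1A1, a fibrillar collagen chain, at 2.02, 2.08 and 1.89 FPKM in control and at 1.43, 1.48 and 1.42 FPKM in TAX replicates 1 to 3. Of the 5 genes of the androgen receptor axis, 4 lay near 0, and KLK3, the gene of prostate-specific antigen, was listed at 0 in all 6 libraries, as is known of this line. The part of these markers in the values below was not tested. In bulk RNA, fewer cells of a kind and less RNA per cell cannot be told apart.

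In the GENCODE 29 annotation of GRCh38, 8 of the 9 genes lie on chromosome 6, within the major histocompatibility complex, and B2M lies on chromosome 15 from 44711487 to 44718877 on the plus strand. HLA-E spans 30489467 to 30494205 on the plus strand, HLA-C 31268749 to 31272130 on the minus strand, and TAPBP 33299694 to 33314387 on the minus strand. HLA-B is annotated from 31269491 to 31357188 on the minus strand, because an alternative transcript model reaches over HLA-C, whereas RefSeq gives it from 31353875 to 31357179. The other members sit side by side. TAP2 spans 32821833 to 32838780, PSMB8 32840717 to 32844703 and TAP1 32845209 to 32853978, all on the minus strand. PSMB9 lies on the plus strand, and RefSeq gives it from 32854192 to 32859851. GENCODE 29 gives PSMB9 from 32844136 to 32859585, a span over TAP1 and part of PSMB8 on the opposite strand. The RefSeq starts of TAP1 and PSMB9 are 488 bases apart on opposite strands, so that the stretch between them lies upstream of both genes.

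Reads of some members can be shared with other genes. Of all stretches of 50 bases in the TAP2 transcript, 80.2% also occur in transcripts of AL669918.1, an overlapping gene of the same strand. AL669918.1 was listed at 1.16, 0.946 and 1.09 FPKM in control and at 0.931, 0.743 and 1.16 FPKM in TAX replicates 1 to 3, far below TAP2. The share was 21.0% for HLA-B, mostly with a pseudogene on the opposite strand, 15.2% for TAP1, mostly with the antisense gene PSMB8-AS1, 6.79% for HLA-C and 5.76% for HLA-E. It was 0 for B2M, TAPBP, PSMB8 and PSMB9. The sources used here do not state whether strand was used in counting, and DU145 carries its own HLA alleles, so the levels of TAP2, TAP1 and the HLA genes are less certain than those of the other 4 members.

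Promoters are shown because the class I genes and the interferon-stimulated antiviral genes, which are set beside them below, are known to share control elements. RefSeq (GRCh38.p14) held a promoter window of 250 bases before to 50 bases after the start for 8 of the 9 members. It held none for HLA-E, and none for IFIT2, OASL and IFITM2 among the antiviral genes named below, so their promoters were not searched. The core of the interferon-stimulated response element (ISRE), a pair of GAAA separated by any 2 bases on either strand, occurred in 3.57% of all 35116 windows. It was found in those of B2M, TAP1, TAP2 and TAPBP, in that of the second start of PSMB8, and not in those of HLA-B, HLA-C and PSMB9. Variants of these letters and sites beyond a window were not counted, so a gene without a match may still have such an element. The TAP1 matches lie in the stretch between the starts of TAP1 and PSMB9, outside the window of PSMB9. In the following stretches of the strand of the gene, 5′ to 3′, capitals mark the ISRE core or its reverse complement. The stretch of B2M is chr15:44711317-44711466 on the plus strand, that of TAP1 chr6:32853755-32853904 on the minus strand and that of TAP2 chr6:32838760-32838909 on the minus strand. Those of the antiviral genes IFIT1 and IFIT3 are chr10:89392423-89392572 and chr10:89327797-89327946, both on the plus strand.
B2M: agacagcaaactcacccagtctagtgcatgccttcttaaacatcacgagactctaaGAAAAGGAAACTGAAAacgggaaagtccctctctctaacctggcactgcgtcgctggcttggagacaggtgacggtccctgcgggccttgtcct
TAP1: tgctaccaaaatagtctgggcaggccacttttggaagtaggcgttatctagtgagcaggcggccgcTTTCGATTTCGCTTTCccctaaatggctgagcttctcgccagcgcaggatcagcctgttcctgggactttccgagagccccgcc
TAP2: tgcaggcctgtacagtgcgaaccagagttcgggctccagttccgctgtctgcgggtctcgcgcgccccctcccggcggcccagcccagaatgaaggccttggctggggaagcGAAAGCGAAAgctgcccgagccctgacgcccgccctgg
IFIT1: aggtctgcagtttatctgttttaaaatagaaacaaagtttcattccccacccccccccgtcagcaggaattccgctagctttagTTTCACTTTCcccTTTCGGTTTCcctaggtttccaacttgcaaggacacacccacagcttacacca
IFIT3: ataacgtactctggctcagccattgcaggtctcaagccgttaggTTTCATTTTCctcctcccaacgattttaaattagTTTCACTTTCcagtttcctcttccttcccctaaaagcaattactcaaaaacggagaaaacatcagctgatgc
B2M and TAP1 each hold a pair of overlapping matches, which begin at positions -144 and -138 from the start in B2M and at -134 and -128 in TAP1. TAP2 holds a single match at -58. IFIT1 and IFIT3 each hold a pair of separate matches, at -116 and -103 and at -156 and -122. The IFIT3 positions are from the first of its RefSeq starts. Of the other elements searched on both strands, TGACGT, the letters of a cAMP response element, occurred in 7.98% of all windows and among the members only in that of PSMB8, at -69. The NF-kB core, GGG and CC separated by any 5 bases, occurred in 58.7% of all windows and in those of HLA-B, HLA-C, B2M, TAP1, TAP2 and TAPBP. A match is a description of these letters and not evidence of a bound site. For each of these elements only the exact letters were searched, so a missing match is not evidence that the element is absent.

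The windows of HLA-B and HLA-C held CCAAT, the letters of the Y box to which NF-Y binds, 3 times in HLA-B and 4 times in HLA-C. CCAAT occurred in 34.6% of all windows on either strand, and among the other members once each in those of B2M, TAP1 and PSMB9, at -49, -249 and -243. These windows are shown because they are much alike. The stretches of HLA-B (chr6:31357230-31357379, minus strand) and HLA-C (chr6:31272143-31272292, minus strand) follow, with CCAAT or its reverse complement in capitals.
HLA-B: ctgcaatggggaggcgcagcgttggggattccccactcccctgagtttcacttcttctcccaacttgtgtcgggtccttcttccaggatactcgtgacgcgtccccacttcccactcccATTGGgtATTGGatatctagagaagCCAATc
HLA-C: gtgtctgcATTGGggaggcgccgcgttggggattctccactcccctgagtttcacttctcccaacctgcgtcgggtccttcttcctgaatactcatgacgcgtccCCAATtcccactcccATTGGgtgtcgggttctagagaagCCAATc
When both were aligned with gaps, 134 of 146 aligned bases (91.8%) were identical, and the CCAAT at position -56 was present in both. Its reverse complement at -81 in HLA-B and at -80 in HLA-C also stood within the same neighbouring letters.

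All 9 genes were expressed in every library. Their mean levels over the 6 libraries ran from 681 FPKM for B2M through 105 FPKM for HLA-C, 93.1 FPKM for HLA-B, 61.1 FPKM for TAPBP, 34.0 FPKM for HLA-E, 24.3 FPKM for TAP1, 23.2 FPKM for TAP2 and 13.9 FPKM for PSMB8 to 6.85 FPKM for PSMB9. This order was the same in 6 of 6 libraries. Neighbours in the order did not overlap in their ranges, except HLA-C with HLA-B, whose means differed 1.13-fold, and TAP1 with TAP2, whose means differed 1.05-fold. The light chain was by far the most abundant, with a mean 6.47 times that of HLA-C, and held places 30 to 40 among all listed genes in the 6 libraries. At the other end, PSMB9 held places 6796 to 8288. The 9 genes made up 0.2997%, 0.319% and 0.317% of the summed FPKM in control replicates 1 to 3 and 0.288%, 0.287% and 0.284% in TAX replicates 1 to 3. The share was thus below that of every control library in each TAX library, and B2M makes up most of it.

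**Figure D1:**
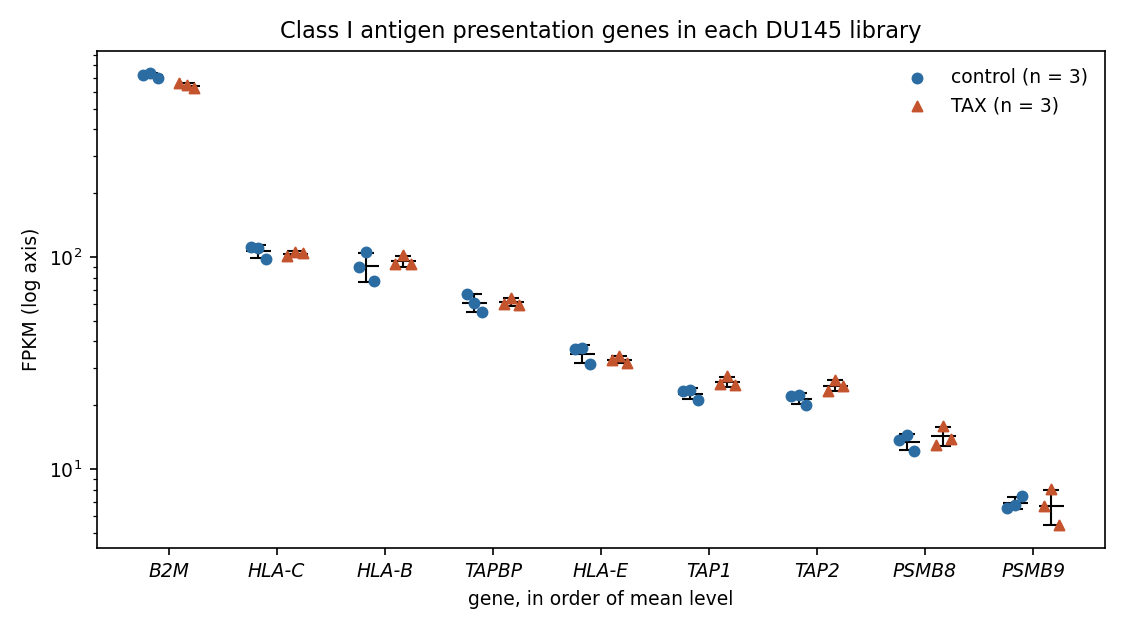
FPKM of the 9 class I genes in each library on a log axis, with genes in order of their mean level, control libraries as circles and TAX libraries as triangles, and the mean and SD of each group as bars (n = 3 each). B2M stands near 681 FPKM and PSMB9 near 6.85 FPKM, and only B2M, TAP1 and TAP2 show groups without overlap.

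The comparison of TAX-treated with control cells asked whether the treatment moved the antigen presentation genes. No member passed the test: 0 of 9 reached an adjusted p under 0.05 (limma with Benjamini-Hochberg adjustment over all 12359 genes tested), while 59 genes, 0.477% of those tested, did (0.316% higher and 0.162% lower). All 9 passed the filter on low values in both groups. Adjusted p-values of the members ran from 0.469 to 0.976, and 1 of 9, TAP2, had an unadjusted p under 0.05, against 10.1% of all genes tested (7.73% higher and 2.41% lower). With the replicate number as a block, 0 of 9 did, against 7.86% of all genes tested. Groups did not overlap for 3 of the 9, 2 with higher and 1 with lower values in TAX-treated cells, against 17.9% of all genes tested (14.6% higher and 3.34% lower). The median log2 fold change of the 9 was 0.0092, against 0.054 for all genes tested, and 5 of 9 lay above 0, as did 8537 of the 12359 genes tested.

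The spread between libraries limits how large a difference between these 2 groups of libraries the fits allow, on the log2(FPKM + 1) scale. That scale understates changes of low genes. Since the libraries of a group may be technical replicates, the intervals do not bound the change in separate cultures. Standard errors of the 9 log2 fold changes lay between 0.081 and 0.12. The 95% intervals of all 9 lay within 1.5-fold in either direction, with 1.30-fold as the largest upper bound (TAP2) and 0.780-fold as the smallest lower bound (B2M). Over the 7 alternative settings that kept all 6 libraries these bounds were 1.33-fold and 0.752-fold, and over the 6 fits without 1 library they were 1.38-fold and 0.727-fold. The exact permutation test of 3 against 3 libraries cannot give a p under 0.1.

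**Figure D2:**
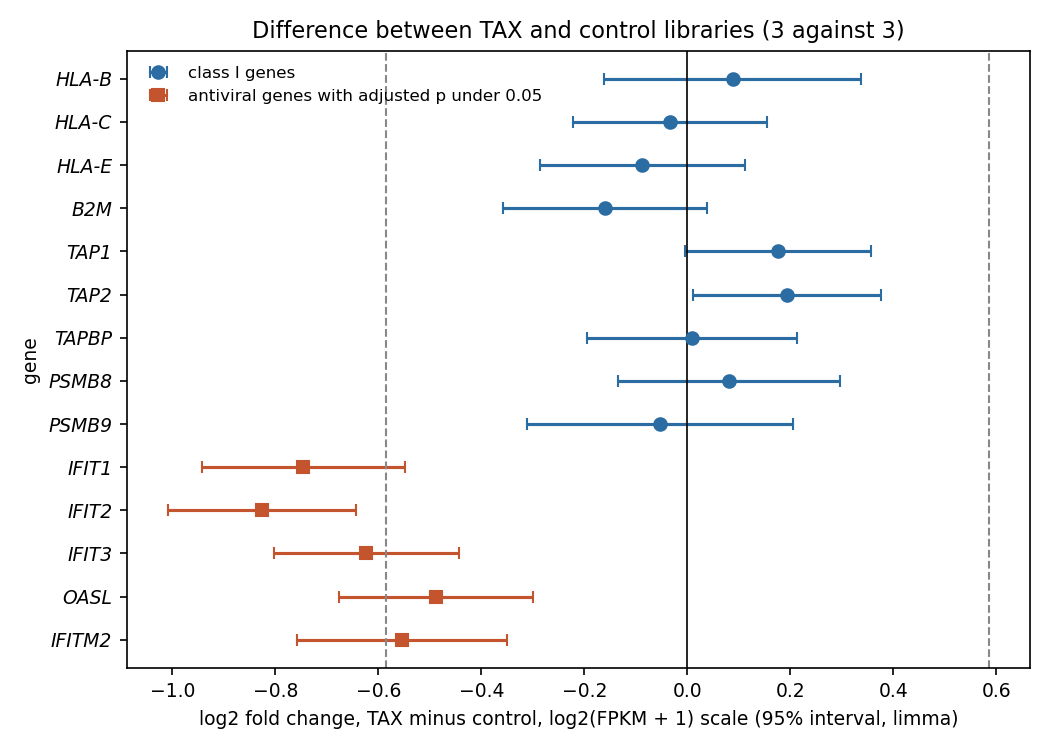
Log2 fold change of TAX minus control on the log2(FPKM + 1) scale, with 95% limma intervals, for the 9 class I genes (circles) and 5 antiviral genes with an adjusted p under 0.05 (squares), 3 libraries against 3. Dashed lines mark 1.5-fold, and the intervals of all 9 class I genes lie between them. The 5 antiviral genes were drawn because they passed the test, out of 22 tested with a median of -0.19. Their values run from -0.83 (IFIT2) to -0.49 (OASL), and those of OASL and IFITM2 (-0.55) also lie between the lines. Only the interval of IFIT2, from -1.01 to -0.64, lies wholly beyond 1.5-fold.

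Among the heavy chains, HLA-B and HLA-C present peptides to CD8+ T cells and to killer cell receptors, and HLA-E presents signal peptides of other class I chains to the natural killer receptor NKG2A. HLA-B was measured at 89.6, 105 and 77.0 FPKM in control replicates 1 to 3 and at 92.3, 102 and 92.8 FPKM in TAX replicates 1 to 3. The groups overlapped, with both the highest and the lowest value in control cells, where the coefficient of variation was 15.5%. The log2 fold change of HLA-B was 0.088 ± 0.11 (SE, n = 3 per group, adjusted p = 0.801, limma), and without control replicate 3 it was -0.022. HLA-C was measured at 111, 111 and 97.6 FPKM in control and at 101, 106 and 105 FPKM in TAX replicates. The TAX values lay between the lowest and the highest control value, and the log2 fold change was -0.034 ± 0.085 (SE, n = 3 per group, adjusted p = 0.907, limma), or -0.096 without control replicate 3. HLA-E was measured at 36.7, 37.4 and 31.2 FPKM in control and at 32.8, 34.2 and 31.5 FPKM in TAX replicates. Control replicate 3 was the lowest of the 6 and the other control libraries were the highest, and the log2 fold change was -0.088 ± 0.090 (SE, n = 3 per group, adjusted p = 0.757, limma), or -0.17 without control replicate 3.

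B2M encodes beta-2 microglobulin, the invariant light chain without which most class I heavy chains do not reach the cell surface. It was measured at 719, 734 and 701 FPKM in control replicates 1 to 3 and at 660, 644 and 624 FPKM in TAX replicates 1 to 3. Every TAX library lay below every control library. The log2 fold change was -0.16 ± 0.089 (SE, n = 3 per group, adjusted p = 0.564, limma; exact two-sided permutation p = 0.1), so the difference did not pass the test. Without control replicate 3 the log2 fold change was -0.18. In FPKM, B2M had the smallest spread of the members among control libraries, with a coefficient of variation of 2.27%. That rank did not hold after rescaling of every library to the same sum (TPM). Control replicates 1 to 3 of B2M were then at 1978, 2100 and 2175 TPM, and those of TAP1 at 64.5, 67.3 and 65.8 TPM. The direction and the lack of overlap were the same under all 13 alternatives, with log2 fold changes from -0.22 to -0.14 and adjusted p-values from 0.306 to 0.886.

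TAP1 and TAP2 form the heterodimeric transporter that moves peptides into the endoplasmic reticulum. TAP1 was measured at 23.5, 23.5 and 21.2 FPKM in control replicates 1 to 3 and at 25.1, 27.4 and 24.9 FPKM in TAX replicates 1 to 3. TAP2 was measured at 22.3, 22.3 and 20.1 FPKM in control and at 23.4, 26.3 and 24.6 FPKM in TAX replicates. For both subunits every TAX library lay above every control library, with control replicate 3 the lowest and TAX replicate 2 the highest. The log2 fold change was 0.18 ± 0.081 for TAP1 (SE, n = 3 per group, unadjusted p = 0.0548, adjusted p = 0.493, limma). It was 0.19 ± 0.082 for TAP2 (SE, n = 3 per group, unadjusted p = 0.0396, adjusted p = 0.469, limma). Neither passed the test, and without control replicate 3 the log2 fold changes were 0.13 and 0.15. Both genes stayed without overlap under all 13 alternatives, at adjusted p-values from 0.341 to 0.830 for TAP1 and from 0.309 to 0.816 for TAP2.

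TAPBP encodes tapasin, which bridges the transporter and the empty class I molecule. It was measured at 67.2, 60.7 and 54.9 FPKM in control replicates and at 60.3, 64.1 and 59.2 FPKM in TAX replicates. The TAX values lay within the control range, and the log2 fold change was 0.0092 ± 0.092 (SE, n = 3 per group, adjusted p = 0.976, limma), with a sign that turned negative under median centring, quantile normalization and rescaling to TPM, and was -0.062 without control replicate 3.

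PSMB8 and PSMB9 are the interferon-inducible catalytic subunits that take the places of PSMB5 and PSMB6 in the immunoproteasome. PSMB8 was measured at 13.8, 14.5 and 12.2 FPKM in control and at 13.0, 16.0 and 13.9 FPKM in TAX replicates. PSMB9 was measured at 6.60, 6.81 and 7.46 FPKM in control and at 6.68, 8.05 and 5.47 FPKM in TAX replicates. Groups overlapped for both, and the TAX libraries of PSMB9 held its highest and its lowest value. The log2 fold change was 0.080 ± 0.097 for PSMB8 (SE, n = 3 per group, adjusted p = 0.790, limma) and -0.053 ± 0.12 for PSMB9 (SE, n = 3 per group, adjusted p = 0.891, limma). Without control replicate 3 these values were 0.015 and -0.0084.

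Control replicate 3 held the lowest value of 7 of the 9 genes, and TAX replicate 2 held the highest value of 4. Scaling between libraries therefore bears on which groups overlap. After rescaling of every library to the same sum (TPM), HLA-E was at 101, 107 and 96.7 TPM in control and at 93.4, 95.7 and 91.3 TPM in TAX replicates 1 to 3, without overlap. B2M was then at 1978, 2100 and 2175 TPM in control and at 1877, 1799 and 1806 TPM in TAX replicates. As TPM, 4 of 9 members had groups without overlap, against 19.6% of all genes tested (13.3% higher and 6.26% lower). With each library centred on its median, HLA-C and HLA-E joined B2M with lower values in every TAX library, so that 5 of 9 did not overlap, against 18.7% of all genes tested (9.14% higher and 9.53% lower). The same 5 genes did not overlap with quantile normalization, against 17.9% of all genes tested (9.74% higher and 8.16% lower). When control replicate 3 was left out, 5 of 9 did not overlap either, but so did 29.3% of all genes tested (15.9% higher and 13.4% lower) with the smaller group. No member reached an adjusted p under 0.05 in any of these fits.

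Ratios within a library do not depend on how that library was scaled. The ratio of PSMB8 to its constitutive counterpart PSMB5 was 0.227 ± 0.020 in control and 0.234 ± 0.0083 in TAX-treated cells (SD, n = 3 each, exact two-sided permutation p = 0.7, adjusted p = 0.7 over 5 ratios). The ratio of PSMB9 to PSMB6 was 0.0811 ± 0.0061 in control and 0.0691 ± 0.0085 in TAX-treated cells (SD, n = 3 each, exact permutation p = 0.2, adjusted p = 0.5). In both groups the transcripts of the constitutive subunits thus stood several times above those of PSMB8 and PSMB9. Proteins of these subunits were not measured here. The third inducible subunit, PSMB10, stood at 0.0224 ± 0.0028 of its counterpart PSMB7 in control and at 0.0199 ± 0.00070 in TAX-treated cells (SD, n = 3 each, exact permutation p = 0.3, adjusted p = 0.5). The ratio of TAP1 to TAP2 was 1.06 ± 0.0017 in control and 1.04 ± 0.028 in TAX-treated cells (SD, n = 3 each, exact permutation p = 0.7, adjusted p = 0.7). The sum of HLA-B and HLA-C over B2M was 0.274 ± 0.023 in control and 0.311 ± 0.016 in TAX-treated cells (SD, n = 3 each, exact permutation p = 0.2, adjusted p = 0.5). Groups overlapped for all 5 ratios.

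The ratios of the transporter genes to the light chain were chosen after the values had been seen and are given without a test. TAP1 over B2M was 0.0326, 0.0321 and 0.0303 in control replicates 1 to 3 and 0.0380, 0.0426 and 0.0399 in TAX replicates 1 to 3. TAP2 over B2M was 0.0309, 0.0303 and 0.0286 in control and 0.0355, 0.0408 and 0.0394 in TAX replicates. Every TAX library was above every control library for both, with log2 differences of 0.34 and 0.36. Each ratio joins genes whose groups were already seen to lie apart in opposite directions.

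**Figure D3:**
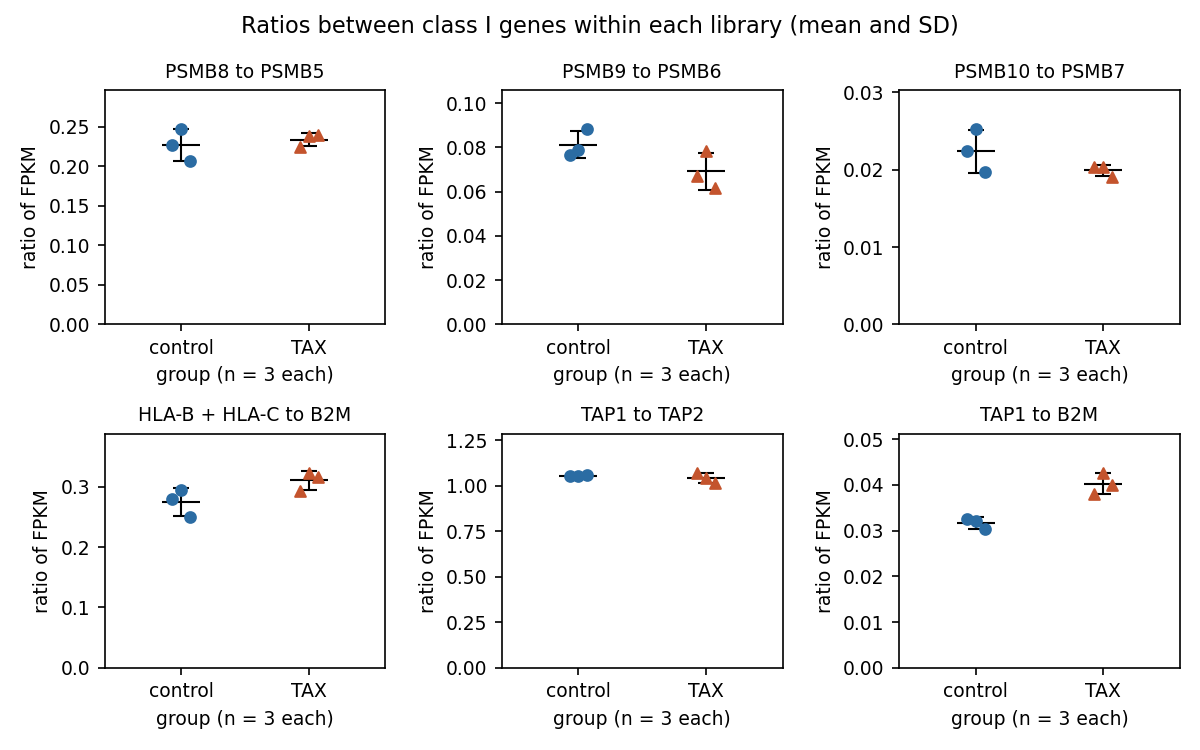
Ratios of FPKM between class I genes within each library, on linear axes from 0, for control (circles) and TAX (triangles) libraries with the mean and SD (n = 3 each). The groups overlap in the first 5 panels, and the last panel, chosen after the values were seen, shows TAP1 over B2M at 0.0316 in control and 0.0402 in TAX on average.

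Of 5 other class I heavy chain genes, 3 were expressed high enough to be tested, and 0 of 3 passed the limma test, none of them at an unadjusted p under 0.05 either. MR1, which presents vitamin B metabolites to mucosal-associated invariant T cells, was at 3.39, 3.88 and 3.02 FPKM in control and at 2.45, 2.96 and 3.01 FPKM in TAX replicates. Its groups did not overlap, by a narrow margin, and its log2 fold change was -0.22 (adjusted p = 0.492, limma). HLA-F stood at -0.14 and HFE, the iron regulator, at -0.022, while HLA-G was listed at 0 in all 6 libraries and CD1D reached at most 0.04 FPKM. The median of the 3 tested was -0.14.

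Of the 13 listed genes for peptide trimming, chaperoning and quality control, 13 were tested and 0 passed the limma test, 0 of them at an unadjusted p under 0.05, with 7 above and 6 below 0 and a median log2 fold change of 0.021. They ran from CALR, the chaperone calreticulin, at -0.15 to THOP1, a peptidase that degrades cytosolic peptides, at 0.18, or -0.25 and 0.10 without control replicate 3. The trimming peptidases ERAP1 and ERAP2 stood at -0.046 and 0.039, and the loading partner PDIA3 at -0.039. Only THOP1 among them had groups without overlap.

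The proteasome genes outside the 9 lay mostly above 0, as most genes did, and none was called. Of 9 counterparts and activator genes, 0 passed the limma test and 1 had an unadjusted p under 0.05, against 10.1% of all genes tested. Of the 9, 8 lay above 0, and the median log2 fold change was 0.069, close to the 0.054 of all genes tested. PSMB7 had the smallest p, at 141, 147 and 135 FPKM in control and 158, 178 and 161 FPKM in TAX replicates without overlap (log2 fold change 0.23, unadjusted p = 0.0228, adjusted p = 0.411, limma). PSMB6 stood at 0.17 and PSMB5 at 0.039, and the activator subunits PSME1 and PSME2 at -0.069 and 0.069. Of 11 other subunits of the proteasome core, 0 passed, 0 had an unadjusted p under 0.05 and 9 lay above 0, with a median of 0.090.

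Regulators of class I transcription were described in the same way. Of 16 tested, 0 passed the limma test, and 3 had an unadjusted p under 0.05, against 10.1% of all genes tested. Of the 16, 12 lay above 0, as did 8537 of the 12359 genes tested. Their median log2 fold change was 0.079, against 0.054 for all genes tested. Groups did not overlap for 17.9% of all genes tested. NLRC5, the transactivator of class I genes, was low, at 2.26, 1.90 and 1.73 FPKM in control and 2.31, 2.48 and 3.08 FPKM in TAX replicates. Its groups did not overlap, and its log2 fold change was 0.29 (unadjusted p = 0.0186, adjusted p = 0.396, limma). NFYB, a subunit of the CCAAT-binding factor NF-Y, stood at -0.22 without overlap (adjusted p = 0.373, limma), and NFKB1, a subunit of NF-kB, at 0.25 with overlap (adjusted p = 0.471, limma), or 0.14 without control replicate 3. Of 14 tested interferon receptor and signalling genes, 0 passed, 1 had an unadjusted p under 0.05, 7 lay above 0, and the median was -0.003. The smallest p was that of SOCS3, a feedback inhibitor of cytokine signalling, at 7.62, 6.75 and 6.92 FPKM in control and 5.13, 5.65 and 5.24 FPKM in TAX replicates (log2 fold change -0.35, adjusted p = 0.131, limma).

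Interferon-responsive genes outside the pathway were set beside the members. Of 19 listed genes that respond to interferon gamma, 12 were tested and 0 passed the limma test, 0 of them at an unadjusted p under 0.05, with 7 above 0 and a median log2 fold change of 0.040. Of 30 interferon-stimulated antiviral genes, 22 were tested and 5 of them fell, while 0.162% of all genes tested fell. The list was chosen with earlier results of these data known, so the count is a description. Of the 22, 18 lay below 0, and the median was -0.19. The genes that fell were IFIT1, IFIT2 and IFIT3, which bind viral RNA or its protein partners, OASL, a relative of the enzymes that sense double-stranded RNA, and IFITM2, which blocks virus entry and, as a close paralog of IFITM3, can share reads with it.

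IFIT1, whose promoter is printed above with B2M, TAP1 and TAP2, was at 11.7, 12.3 and 11.0 FPKM in control and at 6.60, 7.23 and 5.93 FPKM in TAX replicates 1 to 3. IFIT3 was at 27.7, 24.4 and 24.3 FPKM in control and at 15.8, 16.4 and 16.2 FPKM in TAX replicates. Groups were far apart for both, with log2 fold changes of -0.75 (adjusted p = 0.0082) and -0.62 (adjusted p = 0.011, both limma). IFIT2 fell by 0.83, IFITM2 by 0.55 and OASL by 0.49 on the log2 scale (adjusted p = 0.0026, 0.031 and 0.040, limma). OASL and IFITM2 no longer passed when any 1 library was left out. None of the 5 passed without the filter on low values, where adjusted p-values ran up to 0.192. The 9 class I genes and the antiviral genes were measured in the same libraries, and the difference between the lists was not tested.

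**Figure D4:**
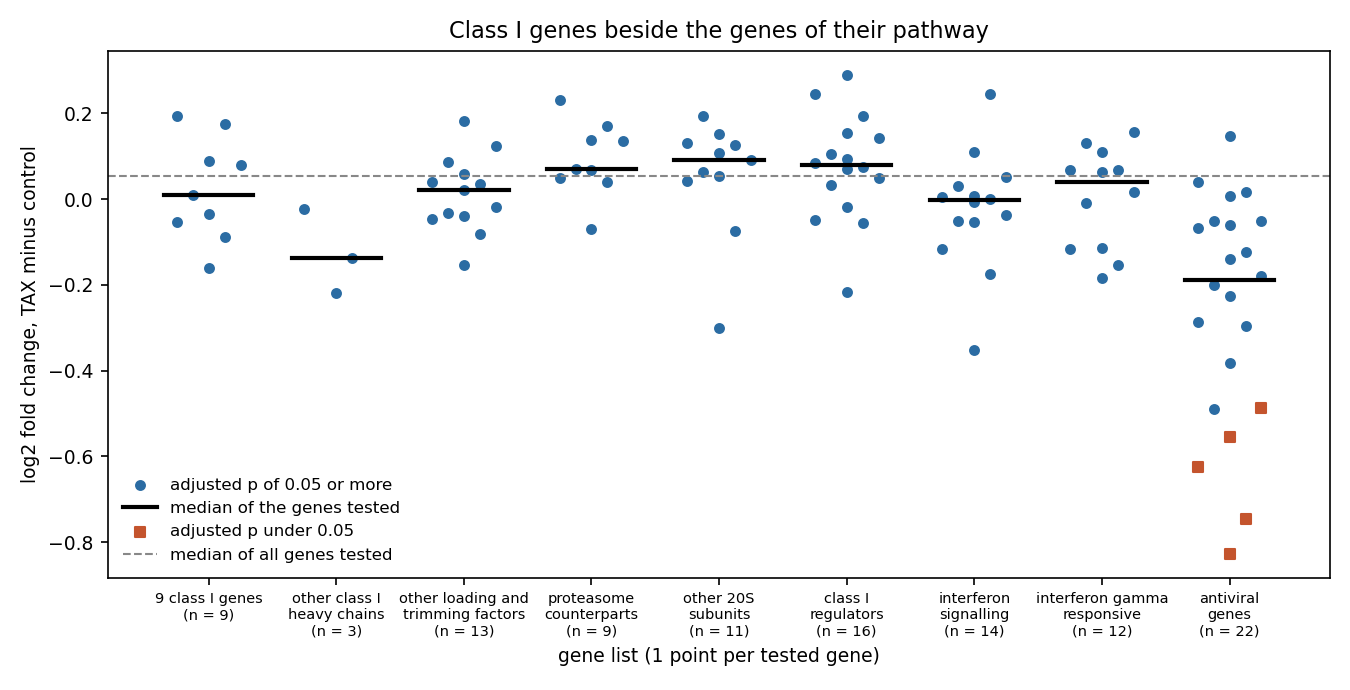
Log2 fold change of TAX minus control for each tested gene of the 9 class I genes and of 8 lists of related genes, 1 point per gene, with the median of each list as a bar and the median of all genes tested (0.054) as a dashed line. Squares mark the 5 genes with an adjusted p under 0.05, all of them antiviral genes, and the medians run from -0.19 for the antiviral genes to 0.090 for the other proteasome core subunits.

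Class II genes, which present to CD4+ T cells, and ligands of receptors on natural killer and T cells were counted too. Of 12 class II genes, 5 were tested, 0 passed the limma test and 1 had an unadjusted p under 0.05, and the 12 summed to between 15.1 and 17.98 FPKM per library. HLA-DRB1 had the smallest p, with a log2 fold change of -0.19 (adjusted p = 0.492, limma). Of 16 ligands of natural killer and T cell receptors, 11 were tested, 0 passed and 2 had an unadjusted p under 0.05. Among all genes tested, 10.1% had such a p and 17.9% had groups without overlap. CD274, the gene of the inhibitory ligand PD-L1, was at 2.94, 2.44 and 2.46 FPKM in control and at 3.79, 3.46 and 3.42 FPKM in TAX replicates, without overlap (log2 fold change 0.34, adjusted p = 0.190, limma). MICB, a stress ligand of the receptor NKG2D, was at 23.2, 19.9 and 19.5 FPKM in control and at 16.7, 18.8 and 18.2 FPKM in TAX replicates, also without overlap (log2 fold change -0.21, adjusted p = 0.481, limma).

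Neighbouring genes of the complex were counted as well. Between the start of HLA-F and the end of TAPBP, on chromosome 6 from 29722775 to 33314387, 121 further genes were listed and 74 were tested. Of these 0 passed the limma test and 4 had an unadjusted p under 0.05, against 10.1% of all genes tested. Of the 74, 49 lay above 0, and the median log2 fold change was 0.063, against 0.054 for all genes tested. The 3 with the smallest p were RGL2 at 0.29 (adjusted p = 0.282), CLIC1 at 0.28 (adjusted p = 0.402) and VARS2 at 0.19 (adjusted p = 0.453, all limma), each with higher values in every TAX library.

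The genes most like the mean standardized log2(FPKM + 1) of the 9 members, by Pearson correlation over the 6 libraries, were ZHX2 (r = 0.996), NICN1 (r = 0.992), ZNF652 (r = 0.986), SUPT3H (r = 0.985) and GAREM1 (r = 0.985). Each of the 5 was lowest in control replicate 3. Of 12350 other genes tested, 247 (2.0%) had an r above 0.9. The 6 points share whatever sets a library apart, its scaling included, and the correlations are given as a description only.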

How the data were processed

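Total RNA of 6 DU145 libraries (control and TAX, 3 each, grouped by their labels) was sequenced after preparation with an mRNA library kit. The submitters' processing notes name HISAT2 2.2.0, StringTie 2.1.2 and GRCh38, and the annotation and settings are not given in the sources used here. The authors deposited 1 table per library with a value per gene and no unit, read here as FPKM estimated from the reads aligned to that genome with these tools. The values are not whole and sum to no fixed total, and 3130 of 23062 row names begin with MSTRG, as StringTie names its loci. Depth is unknown: among values under 0.03 FPKM, no bin 0.01 wide of the log2 ratio of 2 libraries held more than 2.67% of genes, so no whole reads were recovered.

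A total of 12359 genes reached 1 FPKM in 3 or more libraries, and these were tested on log2(FPKM + 1) with limma (version 3.58.1, R 4.3.3, a mean-variance trend, no covariate, two-sided, Benjamini-Hochberg adjustment over all genes tested), after a test on simulated data. Fold changes are on that scale and understate changes of low genes. Ratios and single members were compared by exact permutation tests (scipy 1.17.1). Rescaling, pseudocount, filter, trend, replicate block and leaving out each library were tried as alternatives. Positions are from GENCODE 29 and promoters from RefSeq GRCh38.p14. Beside the 9 genes, all genes of the 3 nearest lists may be named, of other lists up to 4 with the smallest p and any called, 3 of the chromosome 6 region, and 5 with the highest correlation. Members and lists were chosen with earlier results of these data known. KLK3, CD3E, AL669918.1 and the ratios to B2M of TAP1 and TAP2 were named after their values were seen. The listed aliases IRAP and WARS matched no row and were dropped. Some genes of the lists are not reported here.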

Additional observations from a re-analysis of the deposited data

How the results depend on the processing

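Over 13 alternatives, 110 of 117 member fold changes kept their direction and 0 members were called in any, with a smallest adjusted p of 0.299. The TAPBP log2 fold change was -0.049 with median centring, -0.073 with quantile normalization and -0.019 as TPM, and ran from -0.062 to 0.081 when 1 library was left out. With 1 library left out HLA-B ran from -0.022 (without control replicate 3) to 0.20 and PSMB9 from -0.17 to 0.068 (without TAX replicate 3). The log2 difference of PSMB8 to PSMB5 then ran from -0.019 (without control replicate 3) to 0.11, and that of TAP1 to TAP2 from -0.038 to 0.0017 (without TAX replicate 3). Groups of 5 members did not overlap with median centring or quantile normalization, and of 3 to 5 with 1 library left out. An unadjusted p under 0.05 was reached by 2 members with median centring (12.1% of all genes) or no filter (9.14%), 3 as TPM (12.6%), 0 with the replicate block (7.86%), and 0 to 2 with 1 library left out, with 2 without control replicate 3 (11.3%). Over all genes, 39 were called higher and 20 lower, against 46 and 50 with median centring, 47 and 48 with quantile normalization, 0 and 1 without the filter, where 20280 genes were tested, and 9 to 28 and 8 to 15 with 1 library left out. Centring moved the median of all genes from 0.054 to -0.0034 (log2). With 1 library left out, groups of 3045 to 3893 genes did not overlap and 779 to 1644 had an unadjusted p under 0.05. Of the antiviral genes, 0 were called without the filter and 3 in each fit without 1 library. The median log2 fold change of the class I regulators was 0.0076 with quantile normalization. That of the other class I heavy chains was -0.19 with quantile normalization, -0.20 with median centring and -0.17 as TPM, against -0.14. With 1 library left out those of interferon gamma responsive genes, other class I heavy chains and other loading factors ran from -0.074 to 0.059, -0.21 to -0.064 and -0.082 to 0.031, each lowest without control replicate 3. Why these values moved was not tested beyond the smaller number of libraries or the larger number of genes.

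The replicate numbers did not pair the libraries: deviations from the group means of same-numbered libraries correlated at -0.12, -0.33 and -0.17, and no library correlated best with its own number. With the replicate block, 13 genes were called higher and 13 lower, 3 antiviral genes and 0 members among them. Without counts, no interval for counting error can be given.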
